A study of Mus musculus with 10 samples.

Results

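The genes described here are the hypoxia-inducible factors (HIFs), the oxygen sensors that control them, and HIF targets outside glycolysis, in periotic tissue of mouse embryos with and without mesodermal Tbx1. The list held 36 genes, of which 4 encode HIF subunits, 5 encode oxygen sensors or the VHL protein, and 27 are targets. The array measured 35 of them, 26 of the targets included, among 19938 genes read from a probe set with 1 gene symbol. Loxl2, a collagen cross-linking enzyme, was the exception, because its probe set carried a second gene symbol. The list was drawn up with the mutant minus control difference of these arrays already known. Genotype differences, counts and medians of these genes are therefore a description of the 10 arrays, and no support is drawn from them.

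The mutants were 5 embryos at embryonic day 12.5 with a conditional knockout of Tbx1, a T-box transcription factor, made by T-Cre. The 5 control embryos also carried T-Cre and were conditional heterozygotes, so both groups had the recombinase and neither was wild type. T-Cre acts in the early mesoderm, so it recombines Tbx1 in the mesenchyme around the ear, while the epithelium of the otic vesicle, which has another origin, is not its target. Both sides of 1 embryo were combined on 1 Affymetrix Mouse Gene ST 1.0 array, from 300.0 ng of total RNA. Values are log2 signals, and a difference is the mutant mean minus the control mean with the standard error (SE) of a limma fit across all genes.

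HIF is a pair of proteins, an oxygen-regulated alpha subunit and a constant partner, ARNT. With oxygen present, prolyl hydroxylases of the EGLN family mark the alpha subunit, VHL recognises the mark, and the subunit is degraded. At low oxygen the alpha subunit persists and switches on genes that adjust metabolism, blood supply and matrix. Control of HIF is thus largely at the level of protein, which an RNA array does not measure. Embryonic tissues develop at low oxygen tension, and HIF is known there for its part in vessel and cartilage formation.

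The targeted gene came first as a check of the labels. Tbx1 had log2 signals of 8.40, 7.96, 7.58, 7.63 and 7.58 in mutants 1 to 5, against 8.89, 9.01, 8.84, 8.23 and 8.59 in controls 1 to 5. It was lower by 0.88 (SE 0.17) in the mutants, with an exact two-sided permutation p of 0.0159. The smallest p that 10 arrays allow in that test is 0.00794. By limma with Benjamini-Hochberg adjustment, Tbx1 had an adjusted p of 0.451. The targeted gene therefore did not pass the adjusted threshold applied to the listed genes. Mutant 1 lay above the lowest control, so the groups overlapped by that 1 embryo. Array medians were 6.19 to 6.27, and arrays correlated with each other at 0.985 to 0.993. Markers of otic epithelium and of periotic mesenchyme were above the background of the array, taken from Y-linked probe sets in female embryos (3.12 to 4.36). The sexes were 1 male and 4 females among the mutants and 2 males and 3 females among the controls. Immediate early genes divided the arrays by replicate number in both groups: Fos was at 8.82 to 9.08 on the 6 arrays numbered 1 to 3 and at 5.49 to 5.91 on the 4 arrays numbered 4 and 5. What arrays of 1 number have in common is not stated in the labels. In bulk tissue, fewer cells of a type and less RNA per cell cannot be told apart.

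HIF binds DNA at a short core, spelled ACGTG in one form and also found as GCGTG in another, and the promoters of the 4 targets with the smallest p that have an entry in the promoter table show how the core lies in these genes. Each window runs from 250 bases before to 50 bases after a RefSeq gene start (GRCm38.p6), is written 5′ to 3′ on the strand of the gene, and has each core in capitals. Cores were searched on both strands, so that ACGTG on the other strand is printed as its reverse complement CACGT, and GCGTG as its reverse complement CACGC. A palindrome of the first core counts on each strand. Kdm3a is shown at chr6:71632868-71633167 on the minus strand, Pdk1 at chr2:71872974-71873273 on the plus strand, P4ha1 at chr10:59323046-59323345 on the plus strand and Bnip3 at chr7:138909457-138909756 on the minus strand.
Kdm3a: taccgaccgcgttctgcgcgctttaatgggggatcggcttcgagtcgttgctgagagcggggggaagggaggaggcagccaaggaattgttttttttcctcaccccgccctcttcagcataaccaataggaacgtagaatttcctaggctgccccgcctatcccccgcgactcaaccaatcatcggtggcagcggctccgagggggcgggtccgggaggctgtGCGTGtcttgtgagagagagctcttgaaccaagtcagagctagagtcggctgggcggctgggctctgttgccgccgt
Pdk1: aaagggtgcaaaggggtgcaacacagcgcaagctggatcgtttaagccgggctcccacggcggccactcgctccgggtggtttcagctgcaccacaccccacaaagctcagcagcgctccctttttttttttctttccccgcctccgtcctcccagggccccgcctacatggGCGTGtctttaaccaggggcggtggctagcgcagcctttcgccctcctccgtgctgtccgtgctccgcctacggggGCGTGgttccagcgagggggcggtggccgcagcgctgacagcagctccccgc
P4ha1: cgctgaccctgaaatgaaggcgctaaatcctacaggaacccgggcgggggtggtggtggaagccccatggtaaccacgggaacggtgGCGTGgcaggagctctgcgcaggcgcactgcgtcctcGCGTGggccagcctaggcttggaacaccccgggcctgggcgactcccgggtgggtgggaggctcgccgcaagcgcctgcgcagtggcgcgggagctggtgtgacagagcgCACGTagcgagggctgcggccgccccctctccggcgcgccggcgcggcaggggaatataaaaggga
Bnip3: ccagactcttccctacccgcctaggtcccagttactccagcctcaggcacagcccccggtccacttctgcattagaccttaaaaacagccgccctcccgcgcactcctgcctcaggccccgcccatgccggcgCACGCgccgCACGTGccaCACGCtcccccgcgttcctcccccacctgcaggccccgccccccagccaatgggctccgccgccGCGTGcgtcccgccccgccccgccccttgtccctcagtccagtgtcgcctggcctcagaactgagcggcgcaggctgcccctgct
The Kdm3a window held 1 core, the Pdk1 window 2, the P4ha1 window 3 and the Bnip3 window 5. Kdm3a and Pdk1 each have further listed starts, whose windows held 0 cores. Bnip3 is among the 4 targets by its probe set of higher mean. On its second probe set the genotype difference was 0.18, with an unadjusted p of 0.232 by limma. The 2 windows of Vegfa held 2 and 0 cores. The window with 2 cores (chr17:46025114-46025413, minus strand) belongs to a start farther downstream in the gene. The window of the upstream start (chr17:46032328-46032627) held 0.

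Promoter windows were listed for 28 of the 36 genes. At least 1 core lay in 24 of these 28 genes (85.7%), made up of 18 of 20 targets (90.0%) and 6 of 8 subunit and sensor genes (75.0%). Among all 32851 windows in the table, 43.8% held a core, against 76.3% of the 38 windows of the listed genes. The windows of the listed genes were also richer in CG, with a median of 25 CG pairs against 7 in all windows, and the core itself holds a CG. Among windows with at least 20 CG, the core was in 91.7% of 24 windows of the listed genes, against 73.6% of all windows. A core in a window is a match of letters and does not show that HIF binds there.

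None of the 35 genes passed the adjusted threshold of 0.05 for genotype (limma with Benjamini-Hochberg adjustment). Their adjusted p ran between 0.522 and 0.991, and 0.01% of all genes passed. Tbx1, the targeted gene, did not pass either (adjusted p of 0.451 by limma), so a miss does not show that a gene is unchanged. Among the 35, the mean was higher in the mutants for 27 genes and lower for 8, where 49.1% of all genes were higher. At an unadjusted p under 0.05, 11 genes were higher (4.7% of all genes) and 2 were lower (3.11% of all genes). The genes whose mutants all lay above all controls came from separate roles: Hif1a, a subunit, Pdk1, a mitochondrial enzyme, and Kdm3a, a histone demethylase. These are 3 of the 35, where 1.27% of all genes had that order, and 0 of the 35 had all mutants below all controls, where 0.552% of all genes did. The median difference was 0.083 over the 35 genes and -0.0021 over all genes.

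The heat map of the 35 genes by embryo sets each value against the control mean of its gene. Warm cells are most frequent in mutants 1, 2 and 4, and controls 3 and 5 are the coolest of the controls.

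**Figure D1:**
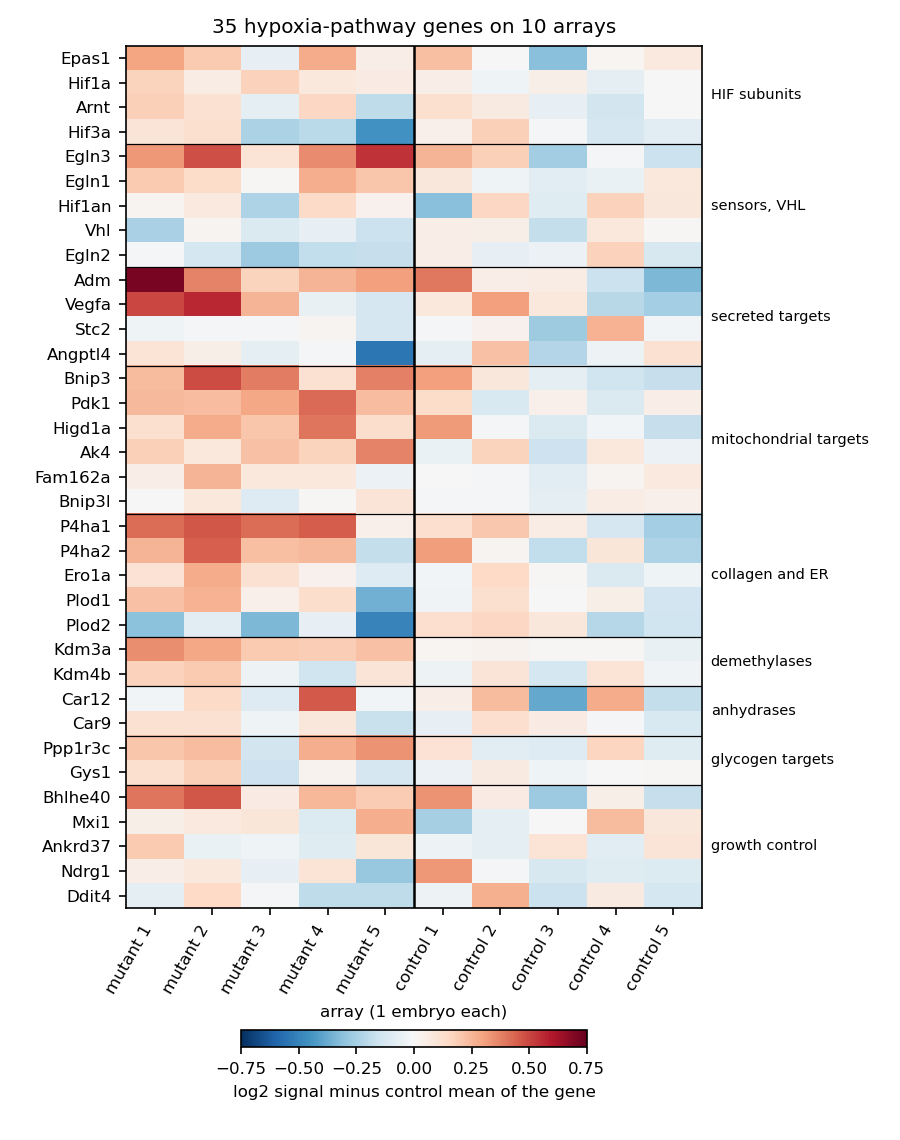
Colour gives log2 signal minus the control mean of the gene, with 35 genes in rows, grouped by role, and 10 arrays in columns, mutants left of controls. Rows of Kdm3a and Pdk1 are warm in all 5 mutants, whereas Plod2 is cool in all 5.

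Targets and the genes that regulate HIF were set side by side on each array. The mean over the 26 targets, relative to the controls, was 0.17, 0.22, 0.064, 0.12 and 0.000037 in mutants 1 to 5, against 0.076, 0.077, -0.072, 0.0050 and -0.085 in controls 1 to 5. Mutant 5 had the lowest target mean of its group and lay within the range of the controls, as did mutant 3. The mean over the 9 subunit and sensor genes was 0.11, 0.12, -0.077, 0.092 and -0.010 in the mutants, against 0.063, 0.056, -0.11, 0.0050 and -0.012 in the controls. Both sets were lowest, within each genotype, on arrays 3 or 5. The group difference was 0.11 for the targets and 0.047 for the subunits and sensors, so that the targets exceeded the subunits and sensors by 0.066. By array that excess was 0.055, 0.098, 0.14, 0.025 and 0.010 in mutants 1 to 5. In controls 1 to 5 it was 0.013, 0.021, 0.039, -5.4e-05 and -0.073. Mutants 4 and 5 lay below control 3, so the groups overlapped. The roles are not fully separate, since Egln3 and Egln1, listed as sensors, are themselves known HIF targets. Egln3 (0.36) and Egln1 (0.17) had the largest differences of the 9 subunit and sensor genes, of which 6 were higher and 3 lower. Target by target, 21, 23, 14, 19 and 13 of the 26 lay above the control mean in mutants 1 to 5, against 14, 18, 10, 14 and 7 in controls 1 to 5. Targets whose mutants all lay above all controls numbered 2, and 5 without control 1 (Adm, Bnip3, Higd1a, Pdk1 and Kdm3a), where 2.61% of all genes had that order without it. Within arrays 1 to 3 they numbered 5 (7.91% of all genes), and within arrays 4 and 5 they numbered 10 (15.8%). Mutant 2 was the highest array for 10 targets and control 5 the lowest for 7.

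Intervals for each gene show how narrow these differences were. SEs of the 35 genes ran from 0.048 to 0.15, so a difference of 0.1 on the log2 scale was within 2 SEs for most genes.

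**Figure D2:**
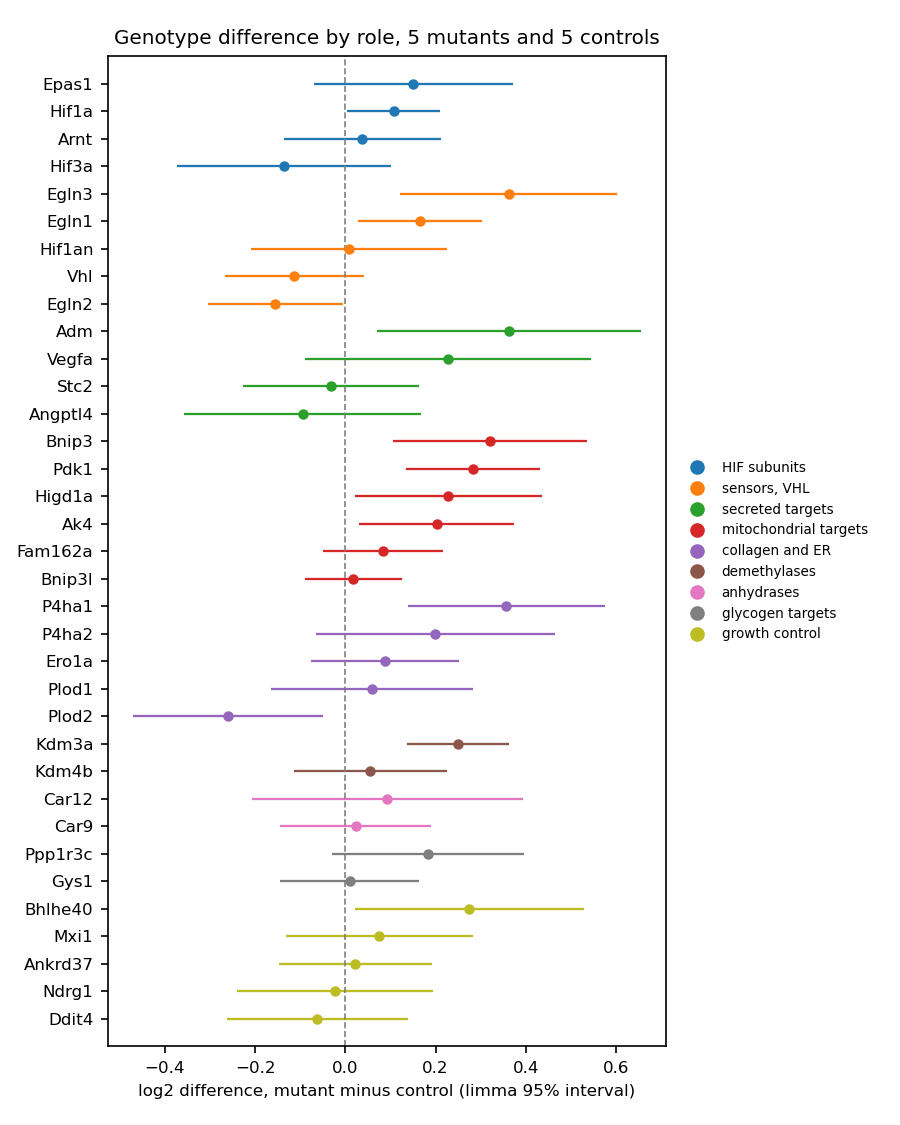
Points give the log2 difference, mutant minus control, of 35 genes (5 mutants, 5 controls) with limma 95% intervals, coloured by role. Egln3, Adm, P4ha1 and Bnip3 lie farthest right, at 0.32 to 0.36, and Plod2 lies farthest left, at -0.26.

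Among the subunits, Hif1a, the alpha subunit present in most cells, was slightly higher in the mutants. It had log2 signals of 10.59, 10.48, 10.60, 10.51 and 10.49 in mutants 1 to 5, against 10.47, 10.39, 10.47, 10.36 and 10.43 in controls 1 to 5. All mutants lay above all controls, by as little as the distance between 10.48 and 10.47, and the difference was 0.11 (SE 0.048). Epas1, the alpha subunit best known from blood vessels, had signals of 8.18, 8.08, 7.83, 8.16 and 7.93 in the mutants, against 8.11, 7.89, 7.57, 7.90 and 7.96 in the controls. These groups overlapped widely, with a difference of 0.15 (SE 0.10). Hif3a, whose short forms can hold back the other alpha subunits, was at 7.19 to 7.77 in the mutants and at 7.52 to 7.83 in the controls, a difference of -0.14 (SE 0.11). Arnt, the shared partner, was at 9.46 to 9.83 in the mutants and at 9.52 to 9.77 in the controls, and its difference of 0.038 (SE 0.080) was smaller than the spread in either group.

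Of the 3 prolyl hydroxylases, 2 were higher in the mutants and 1 was lower. Egln3, itself a known HIF target, had log2 signals of 7.96, 8.12, 7.74, 7.99 and 8.18 in mutants 1 to 5, against 7.89, 7.82, 7.38, 7.62 and 7.47 in controls 1 to 5. Mutant 3 alone lay within the controls, and the difference of 0.36 (SE 0.11) equals a 1.29-fold level (95% interval 1.09 to 1.52). Egln1, the main prolyl hydroxylase of HIF and also a target of it, had signals of 9.62, 9.57, 9.44, 9.70 and 9.64 in the mutants, against 9.52, 9.40, 9.34, 9.38 and 9.51 in the controls. Here too 4 mutants were above the highest control and mutant 3 was not, with a difference of 0.17 (SE 0.063). Egln2, the family member that hypoxia does not induce, had signals of 9.43, 9.30, 9.17, 9.26 and 9.26 in the mutants, against 9.49, 9.38, 9.39, 9.61 and 9.32 in the controls. It ran the other way, with 4 mutants below the lowest control, mutant 1 inside the controls, and a difference of -0.15 (SE 0.070).

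Vhl, the recognition subunit of the ligase that marks HIF for degradation, had log2 signals of 8.24, 8.50, 8.38, 8.42 and 8.32 in the mutants, against 8.54, 8.53, 8.30, 8.56 and 8.49 in the controls. Control 3 was as low as the lower mutants, and the difference was -0.11 (SE 0.072). Hif1an, the asparaginyl hydroxylase that blocks coactivator binding by the alpha subunits, was at 8.42 to 8.80 in the mutants and at 8.34 to 8.82 in the controls. Its difference of 0.0080 had a 95% interval of -0.21 to 0.23, which leaves room for a difference as large as that of Egln1 in either direction. Of the 9 subunit and sensor genes, 6 were higher and 3 lower, where 49.1% of all genes were higher. At an unadjusted p under 0.05 by limma, 3 were higher (4.7% of all genes) and 1 was lower (3.11% of all genes). The median of the 9 genes was 0.038. Without mutant 1 that median was 0.0049, and without mutant 5 it was 0.095.

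All 6 mitochondrial targets had a higher mean in the mutants, 4 of them at an unadjusted p under 0.05 (4.7% of all genes were higher at that level), and their median was 0.22. With each gene read from the probe set that lies among genes of its own chromosome, 2 of the 6 were at that level and the median was 0.13. Pdk1, the kinase that keeps pyruvate out of mitochondria by shutting off pyruvate dehydrogenase, had log2 signals of 8.66, 8.65, 8.71, 8.84 and 8.65 in mutants 1 to 5, against 8.55, 8.30, 8.45, 8.31 and 8.47 in controls 1 to 5. No mutant reached down to a control, and the means were 8.70 ± 0.082 in the mutants and 8.42 ± 0.11 in the controls (SD, n = 5 each). That is a difference of 0.28 (SE 0.069), or 1.22-fold (95% interval 1.1 to 1.35). Ak4, an adenylate kinase of the mitochondrial matrix, had signals of 7.93, 7.83, 7.97, 7.92 and 8.13 in the mutants, against 7.70, 7.92, 7.59, 7.83 and 7.71 in the controls. Controls 2 and 4 lay above the lowest mutant, and the difference was 0.20 (SE 0.079).

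Bnip3, a receptor for the removal of mitochondria by autophagy, had log2 signals of 8.94, 9.19, 9.08, 8.81 and 9.08 in mutants 1 to 5, against 9.01, 8.78, 8.63, 8.55 and 8.53 in controls 1 to 5. Only control 1 reached into the mutants, and the difference was 0.32 (SE 0.099). Higd1a, a small protein of the inner mitochondrial membrane, had signals of 7.28, 7.44, 7.37, 7.56 and 7.29 in the mutants, against 7.47, 7.14, 7.05, 7.13 and 6.98 in the controls. Control 1 again lay among the mutants, with a difference of 0.23 (SE 0.096). Fam162a, a mitochondrial protein linked to cell death under hypoxia, differed by 0.083 (SE 0.062). Bnip3l, the close relative of Bnip3, averaged 10.92 ± 0.077 in the mutants and 10.91 ± 0.051 in the controls (SD, n = 5 each), a difference of 0.017 (SE 0.050).

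These mitochondrial genes include the 4 listed genes that are read by 2 probe sets, and the readings did not always match. The readings described above come from the probe set with the higher mean. For Bnip3, Bnip3l and Higd1a that probe set has a number whose 8 nearest named neighbours are all genes of another chromosome (chromosome 14 beside Bnip3, a gene of chromosome 7, and chromosome 3 beside Higd1a, a gene of chromosome 9). The other probe set of these genes lies among genes of its own chromosome. For Bnip3 that second probe set gave 8.12, 8.35, 8.59, 8.12 and 8.46 in mutants 1 to 5, against 8.60, 8.31, 7.82, 8.04 and 7.99 in controls 1 to 5. Its difference was 0.18 (SE 0.14), with a 95% interval of -0.13 to 0.48. For Higd1a the second probe set differed by 0.0065 (SE 0.10, interval -0.21 to 0.23), so the higher level of Higd1a in the mutants rests on 1 of its 2 probe sets. Bnip3l differed by 0.035 on its second probe set. For Ak4 the probe set used lies among genes of its own chromosome 4, and the second, beside genes of chromosome 2, differed by 0.36 (SE 0.11). Whether any of these probe sets also reads a related sequence was not tested.

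**Figure D3:**
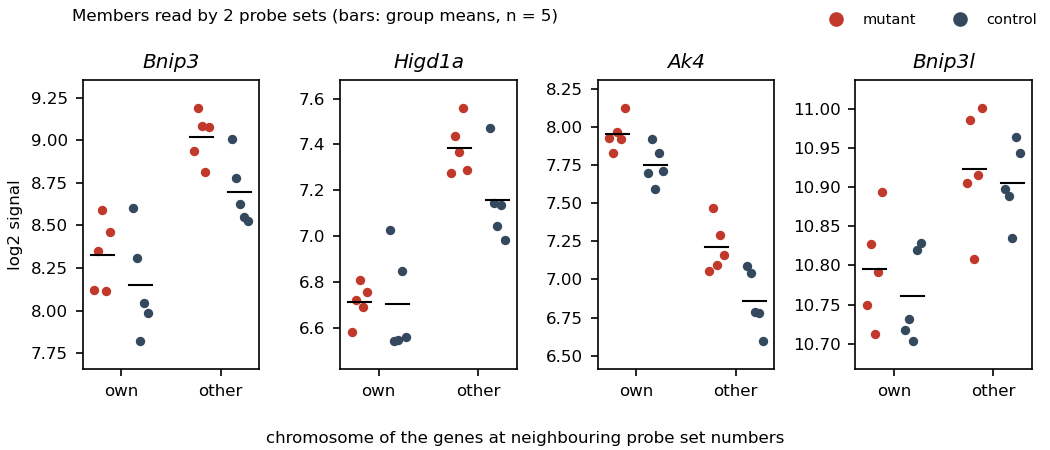
Points are log2 signals of 5 mutants and 5 controls for each of 2 probe sets of 4 genes, split by whether the neighbouring probe set numbers belong to the gene's own chromosome or to another, with bars at group means. Higd1a group means are level on its own-chromosome probe set (a difference of 0.0065) and apart on the other (0.23).

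Enzymes that modify collagen stood at both ends of the range of differences. P4ha1, a catalytic subunit of the collagen prolyl hydroxylase that makes the collagen triple helix stable, had log2 signals of 10.04, 10.09, 10.04, 10.08 and 9.67 in mutants 1 to 5, against 9.75, 9.83, 9.68, 9.50 and 9.38 in controls 1 to 5. Mutants 1 to 4 sat close together above every control and mutant 5 lay inside the controls, a difference of 0.36 (SE 0.10) or 1.28-fold (95% interval 1.1 to 1.49). P4ha2, the related subunit, was at 8.31 to 8.94 in the mutants and at 8.25 to 8.80 in the controls, a difference of 0.20 (SE 0.12). Plod2, a lysyl hydroxylase that prepares collagen for cross-linking, had signals of 10.14, 10.37, 10.12, 10.39 and 9.95 in the mutants, against 10.58, 10.61, 10.54, 10.24 and 10.30 in the controls. It had the most negative difference of the 35 genes, at -0.26 (SE 0.097) or 0.836-fold, and 3 mutants lay below the lowest control. Plod1, another lysyl hydroxylase, differed by 0.058 (SE 0.10), and Ero1a, an oxidase that forms disulfide bonds in the endoplasmic reticulum, by 0.088 (SE 0.076).

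Collagen-modifying enzymes are made by cartilage and mesenchyme, so markers of those tissues are given beside them, with no marker past the adjusted threshold of limma. All 10 cartilage markers had a lower mean in the mutants, with a median of -0.42. At an unadjusted p under 0.05 by limma, 4 of them were lower, where 3.11% of all genes were. Their summed linear signal was 4852 to 8246 in the mutants and 6621 to 9305 in the controls. Of 10 periotic mesenchyme markers, 9 had a lower mean, with a median of -0.11, and 0 were at an unadjusted p under 0.05. Without mutant 5, 6 were lower and 4 higher, with 1 in each direction at that level and a median of -0.067. The part of cartilage or mesenchyme content in the values of P4ha1 and Plod2 was not tested.

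Kdm3a, which removes methyl groups from histone H3 lysine 9, had the smallest p of the 35 genes. Its log2 signals were 9.77, 9.71, 9.62, 9.61 and 9.64 in mutants 1 to 5, against 9.44, 9.45, 9.43, 9.43 and 9.37 in controls 1 to 5. The gap between the groups exceeded the whole range of the controls, and the means were 9.67 ± 0.070 in the mutants and 9.42 ± 0.032 in the controls (SD, n = 5 each). The difference of 0.25 (SE 0.052) equals 1.19-fold (95% interval 1.1 to 1.28), and its adjusted p of 0.522 was the lowest of the 35 genes. Kdm4b, a related demethylase that also responds to HIF, was at 8.77 to 9.12 in the mutants and at 8.79 to 9.02 in the controls, a difference of 0.056 (SE 0.079).

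Secreted targets were mixed. Adm, which encodes the vessel-dilating peptide adrenomedullin, had log2 signals of 6.95, 6.61, 6.40, 6.49 and 6.55 in mutants 1 to 5, against 6.63, 6.29, 6.29, 6.08 and 5.90 in controls 1 to 5. Control 1 lay above 4 of the mutants, and the difference was 0.36 (SE 0.14) or 1.29-fold (95% interval 1.05 to 1.57). Vegfa, the main growth factor of blood vessels, had signals of 8.91, 8.97, 8.66, 8.35 and 8.28 in the mutants, against 8.49, 8.71, 8.48, 8.20 and 8.15 in the controls, a difference of 0.23 (SE 0.15). In both groups its values on arrays 1 to 3 were all above those on arrays 4 and 5. Stc2, a glycoprotein hormone, and Angptl4, a regulator of lipoprotein lipase, differed by -0.032 and -0.095. Of 10 endothelial markers in the blood vessel list, 5 were higher and 5 lower, with a median of 0.050. At an unadjusted p under 0.05 by limma, 2 were higher (4.7% of all genes) and 0 lower (3.11%). Without mutant 5, 7 were higher and 3 lower, 5 and 0 of them at that level, with a median of 0.13. Without mutant 1, 5 were higher and 5 lower, 0 and 2 of them at that level, with a median of -0.014. The summed signal of the list was 3566 to 4998 in the mutants and 3935 to 4540 in the controls.

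The remaining targets act in growth control, glycogen storage and pH. Bhlhe40, a transcriptional repressor that links hypoxia to the circadian clock, had log2 signals of 6.73, 6.79, 6.39, 6.58 and 6.51 in the mutants, against 6.66, 6.39, 6.05, 6.37 and 6.15 in the controls, a difference of 0.27 (SE 0.12). The groups overlapped, with control 1 above 3 of the mutants. Mxi1, an antagonist of MYC, differed by 0.076, Ankrd37, an ankyrin-repeat protein, by 0.022, Ndrg1, a stress-responsive differentiation gene, by -0.023, and Ddit4, an inhibitor of mTOR signalling, by -0.062. Ppp1r3c, which directs a phosphatase to glycogen, differed by 0.18 (SE 0.098) and Gys1, glycogen synthase, by 0.0093. Carbonic anhydrases buffer the pH of hypoxic cells, and of the pair Car12 differed by 0.093. Car9, a widely used marker of hypoxia in tumours, was at 4.54 to 4.82 in the mutants and at 4.59 to 4.83 in the controls, just above the highest background value of 4.36. Its difference of 0.023 was therefore measured near the floor of the array.

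The genes plotted by embryo were picked from those at an unadjusted p under 0.05 by limma. They include no carbonic anhydrase, glycogen or growth control target, and no gene with a difference near 0. They show which group means rest on all embryos and which on some.

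**Figure D4:**
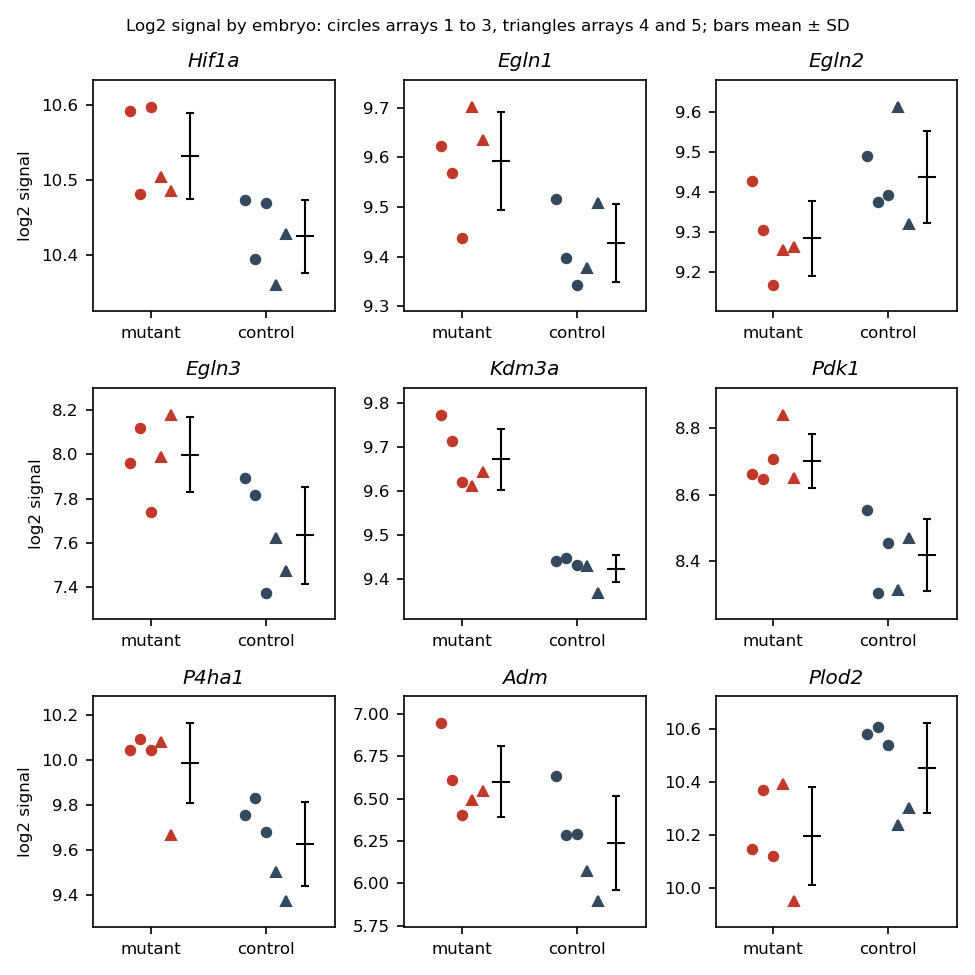
Points are log2 signals of single embryos for 9 genes, mutants left of controls, with circles for arrays 1 to 3, triangles for arrays 4 and 5, and bars at the mean ± SD (n = 5). Hif1a, Kdm3a and Pdk1 do not overlap between groups, and in P4ha1 mutant 5 (9.67) lies inside the controls.

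The array number was compared with genotype in the same fit, after the split by immediate early genes had been seen. The genes and this comparison were chosen with earlier results of these data known. Vegfa was at 8.48 to 8.97 on arrays 1 to 3 and at 8.15 to 8.35 on arrays 4 and 5, and no array of the first set was as low as any of the second. The difference was 0.46 (SE 0.079, 95% interval 0.29 to 0.63), with a limma adjusted p of 0.0447, and it was 1 of 35 genes called, where 0.0953% of all genes were called higher and 0.0953% lower. This fit takes the 10 arrays as independent. If arrays of 1 number are related, there are 5 numbers, 3 against 2. With the number as a random block in limma the adjusted p was 0.0468, and on the means of the 5 numbers the same difference had an SE of 0.0917 and an adjusted p of 0.117 by limma. In addition, 9 of 10 fits with 1 embryo left out lost it, with adjusted p of 0.0397 to 0.154, and only the fit without mutant 3 kept it. At an unadjusted p under 0.05, 6 of the 35 genes were higher on arrays 1 to 3 (6.83% of all genes) and 0 were lower (5.14% of all genes). Besides Vegfa these were Adm (0.28), P4ha1 (0.25), Hif3a (0.25), Bnip3 (0.20) and Ero1a (0.16), given as log2 differences between arrays 1 to 3 and arrays 4 and 5. All 10 endothelial and all 10 macrophage markers were also higher on arrays 1 to 3 (medians 0.15 and 0.26). Of 9 hindbrain, 7 red blood cell and 10 muscle precursor markers, 0 were (medians -0.47, -0.40 and -0.10). Markers of otic epithelium, mesenchyme, cartilage and neurons were mixed, and 12115 of 19938 genes were higher. The part of cell content in the Vegfa difference was not tested.

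Genotype differences within the array numbers are given as a description, since the sign is fixed in advance for genes whose groups did not overlap (Kdm3a, Pdk1 and Hif1a). Kdm3a differed by 0.26 on arrays 1 to 3 and by 0.23 on arrays 4 and 5, and Pdk1 by 0.24 and 0.36. P4ha1 differed by 0.31 and 0.43, Egln3 by 0.25 and 0.54, and Hif1a by 0.11 and 0.10. Vegfa differed by 0.29 and 0.14, and by 0.23 (95% interval 0.059 to 0.40, adjusted p = 0.456 by limma) with the number as a term in the fit. Plod2 was at -0.37 on arrays 1 to 3 and at -0.10 on arrays 4 and 5. A test of whether the genotype difference depended on array number called 0 of the 35 genes (all adjusted p of 1.0 by limma, and 0 at an unadjusted p under 0.05, where 2.53% of all genes were).

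**Figure D5:**
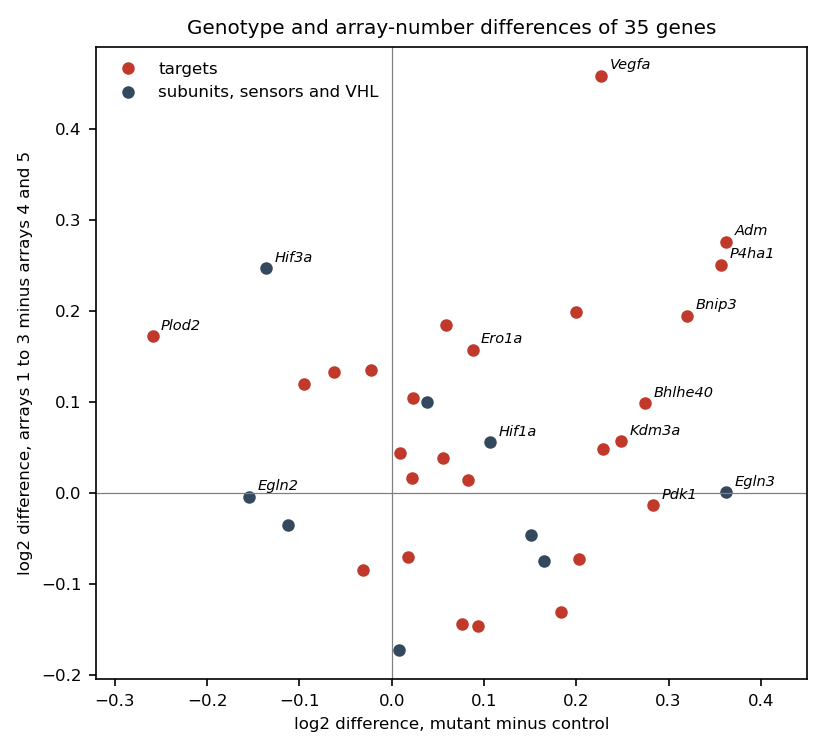
Each point is 1 of 35 genes, with the log2 difference of mutant minus control on the horizontal axis and of arrays 1 to 3 minus arrays 4 and 5 on the vertical axis. Vegfa lies highest at 0.46, and Egln3, Pdk1 and Kdm3a combine a genotype difference of 0.25 to 0.36 with an array-number difference of at most 0.058.

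Neighbouring parts of the pathway were counted in the same way, against 49.1% of all genes with a higher mean in the mutants, and 4.7% higher and 3.11% lower at an unadjusted p under 0.05. Of 16 glycolytic targets measured, 14 were higher in the mutants, 9 of them at an unadjusted p under 0.05, with a median of 0.27. Its genes of smallest p were Ldha, lactate dehydrogenase, at 0.33 (SE 0.053) and Pgk1, phosphoglycerate kinase, at 0.36 (SE 0.062). The glycolytic mean per array, relative to the controls, was 0.33, 0.32, 0.26, 0.14 and 0.18 in mutants 1 to 5, against 0.086, 0.073, -0.053, -0.018 and -0.088 in controls 1 to 5, without overlap. The targets outside glycolysis did overlap, as given above. Of 24 further HIF targets measured, 16 were higher and 8 lower, 4 and 0 of them at an unadjusted p under 0.05, with a median of 0.10 (0.069 without mutant 1). In that set Pfkfb3, a regulator of glycolytic flux that also stands in the glycolytic list, differed by 0.40 (SE 0.079) and Narf by 0.34 (SE 0.084). A list of 15 genes held partners of HIF, parts of the VHL ligase and relatives of the HIF subunits (Npas1, Npas3, Sim1 and Sim2 among them). Of these 15, 13 were higher with a median of 0.032 (0.074 without mutant 1), and 1, Sim1, was higher at an unadjusted p under 0.05. Sim1, a relative of the HIF subunits, differed by 0.30 (SE 0.12) and Cul2, the scaffold of the VHL ligase, by 0.12 (SE 0.057). The stress genes of the ATF4 pathway, a neighbouring response to cell stress, were split 6 higher and 8 lower with a median of -0.021 (0.038 without mutant 5), and 0 had an unadjusted p under 0.05 by limma. Ddit3 and Herpud1, at -0.12 and -0.13, had its smallest p.

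Markers of other cell types were counted on the same arrays, and none passed the adjusted threshold of limma. At an unadjusted p under 0.05 by limma, 4.7% of all genes were higher and 3.11% lower. All 12 neuronal markers had a higher mean in the mutants, with a median of 0.43 (0.28 without control 2). At that unadjusted level 5 of the 12 were higher, but 1 without control 1 and 1 without control 2. Their summed linear signal was 8921 to 19282 in the mutants and 6631 to 12642 in the controls. Of 9 hindbrain and neural tube markers, 8 had a higher mean, with a median of 0.25 and a summed signal of 1635 to 5282 in the mutants and 1529 to 2628 in the controls. Mutant 5 stood apart here, since the mean of these markers relative to the controls was 1.81 in it, against -0.17, -0.25, 0.096 and 0.19 in mutants 1 to 4. Without mutant 5, 4 of the 9 were higher and 5 lower, with a median of -0.035. En2, a marker of the midbrain and anterior hindbrain, ranged from 4.17, at background, to 8.81 over the 10 arrays. Of 7 red blood cell markers, 6 had a lower mean, with a median of -0.17 (-0.024 without control 5) and a summed signal of 12683 to 19451 in the mutants and 14136 to 23536 in the controls. Of 10 muscle precursor markers, 9 had a lower mean, 2 of them at an unadjusted p under 0.05, and 1 was higher at that level. Their median was -0.20 (-0.36 without mutant 4 and -0.11 without control 4), and their summed signal was 9321 to 14710 in the mutants and 10777 to 14700.0 in the controls. Of 10 macrophage markers, 8 had a lower mean, 1 of them at an unadjusted p under 0.05, with a median of -0.049 (0.041 without mutant 5) and a summed signal of 960 to 1507 in the mutants and 1159 to 1564 in the controls. The part of these cell types in the values of the HIF targets was not tested.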

How the data were processed

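Expression was measured in 5 mutants and 5 controls, 1 embryo per array. The authors made the deposited log2 values with Affymetrix Expression Console 1.1 and the RMA method, as stated per the submitters' processing notes. This method corrects background, sets arrays to 1 distribution and summarises probes, so a shift shared by most genes would not be seen. The log2 scale was read from the values. Precision is set by the number of arrays, which have no read depth.

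Of 35557 probe sets, 21789 had 1 gene symbol in the platform annotation, 1621 had more than 1, and 12147 had no entry. RefSeq names (GRCm38.p6) were found by gene id for 21698, and the annotation's name was used for 91. All 21789 were tested with limma 3.58.1 in R 4.3.3 (lmFit, eBayes with trend, two-sided, Benjamini-Hochberg), and each gene was read from its probe set of highest mean. The samples are called biological replicates in the labels.

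The listed genes, lists and tests were chosen with earlier results of these data known. Named are all listed genes and Tbx1, and from each neighbouring pathway list the 2 genes of smallest p. Fos, which shows the division of the arrays, and En2, a marker at background where lowest, were named after their values were seen. Promoters were shown for targets of smallest p with an entry. The fit was tested on simulated data. Same-number mutants and controls had residual correlations of 0.11 to 0.236, all above 0.1, and other numbers -0.382 to 0.385. The highest correlation was thus between different numbers, mutant 5 and control 4. With genotype and the number split in the fit, limma gave same-number arrays a consensus correlation of 0.010. These values do not settle whether the numbers are pairs. The reported fit was unpaired, and a fit with a replicate block was run as an alternative. The other alternatives were leaving out each embryo, median centring, quantile normalization, a filter on dim probe sets, array weights, no trend, sex or array number as a term, other probe sets, and arrays 1 to 3 or arrays 4 and 5 alone. For Vegfa by array number, same-number arrays were also taken as a random block or averaged, chosen after seeing the data.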

Additional observations from a re-analysis of the deposited data

Results flagged for a closer look

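In 6 of 76 groups of 5 embryos, 1 embryo lay far from the other 4, by a gap of more than 0.71 of the whole range, and chance gives about 4 such groups. P4ha1 in mutant 5 was at 9.67, far below mutants 1 to 4. Angptl4 in mutant 5 was at 7.59 and Ppp1r3c in mutant 3 at 6.18, each the lowest of the mutants. Kdm3a in control 5 was at 9.37 and Vhl in control 3 at 8.30, each the lowest of the controls. Ndrg1 in control 1 was at 8.36, the highest of the controls.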

How the results depend on the processing

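No listed gene passed the adjusted genotype threshold under any of 21 alternatives, which gave 0 in each. Under them 6 to 15 had an unadjusted p under 0.05 by limma, against 13 in the reported fit. In the reported fit 4.7% of all genes were higher and 3.11% lower at that level. The shares of all genes under the alternatives are not given here. The lowest adjusted p was 0.247, for Kdm3a with array weights. With the replicate block the target median was 0.085, the subunit and sensor median 0.038 and the number called 0, and the block changed no call. The target median of 0.085 ran between 0.059 and 0.13 with 1 embryo left out and between 0.031 and 0.14 under the other alternatives. The subunit and sensor median of 0.038 ran between 0.0049 and 0.095, and between 0.012 and 0.084. The excess of targets over subunits and sensors, 0.066, ran between 0.047 and 0.080, and between 0.054 and 0.080. The number of targets higher in the mutants, 21, ran between 19 and 22, and between 16 and 24.

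Targets with all mutants above all controls numbered 2, and 2 to 5 with 1 embryo left out. They were 5 without control 1, 5 on arrays 1 to 3 and 10 on arrays 4 and 5, where fewer arrays overlap less often. The Vegfa array-number difference lost its call in 12 of 18 alternatives. It was 0.46 without trend, 0.46 with sex as a term, 0.46 on the means of the 5 numbers (a replicate block), and 0.42 to 0.49 with 1 embryo left out, and the cause was not tested. Of the 35 genes, 21 kept their sign throughout and 14 did not. Of 739 recomputed gene values, 735 moved by less than 1 SD; the others were Higd1a (0.0065) and Ak4 (0.36) on second probe sets and Fam162a (-0.032) and Stc2 (-0.17) on arrays 4 and 5.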
